A study of Homo sapiens with 6 samples.

Results

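The miR-30 family is a group of related microRNAs (miRNAs), small RNAs of about the same length that are cut as a 5p and a 3p strand from the arms of a hairpin precursor. Its members were taken by name from the deposited miRNA table: hsa-miR-30a-5p, hsa-miR-30b-5p, hsa-miR-30c-5p, hsa-miR-30d-5p and hsa-miR-30e-5p, and the opposite strands hsa-miR-30a-3p, hsa-miR-30b-3p, hsa-miR-30c-2-3p, hsa-miR-30d-3p and hsa-miR-30e-3p (hsa, for human, is left out from here on). These were 10 of 2588 named miRNAs, and all 10 were among the 607 that passed the filter on low values (a value of 1 or more in 3 or more of 6 libraries). miR-30c-5p is encoded at 2 loci, and miR-30c-1-3p, the opposite strand at the other of these, is given beside the members. Small RNA was sequenced from A549 cells, an established line from a human lung adenocarcinoma. The Ctrl group held 3 libraries of parental cells, and the MIR21-KO group held 3 libraries of cells in which the MIR21 locus had been deleted with Cas9 and a pair of guide RNAs. No drug or other agent was given, and every culture was harvested 48 h after seeding. The knockouts were grown from single sorted cells, and the sources used here do not say from how many clones the 3 MIR21-KO libraries came, so a clone and the deletion cannot be told apart. The study's methods describe its experiments as biological replicates in general terms, and the labels do not say how the cultures behind these libraries were kept apart, so p-values measure the spread between these libraries. A bulk library cannot tell fewer cells with a miRNA from less of it per cell.

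A miRNA guides an Argonaute protein to mRNAs that pair with its seed, the bases next to its 5′ end, and lowers their translation and stability. Usually the strand whose 5′ end is held less firmly in the duplex is loaded as the guide, and the other is mostly degraded. The 5p strands of the miR-30 family share a seed, are abundant in lung and other epithelia, and are known to repress SNAI1, a factor of the epithelial to mesenchymal transition, and the matrix regulator CCN2 (CTGF).

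The mature sequences are shown because the strands differ by few bases, on which their separate counts rest. They are the RefSeq entries on GRCh38.p14, written 5′ to 3′, and the capitals mark the seed (bases 2 to 8). Of 11 strands, 7 were matched. miR-30b and miR-30d are named only.
miR-30a-5p: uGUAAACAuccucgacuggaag
miR-30e-5p: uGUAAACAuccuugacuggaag
miR-30c-5p: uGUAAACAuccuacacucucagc
miR-30a-3p: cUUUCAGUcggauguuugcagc
miR-30e-3p: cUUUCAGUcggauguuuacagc
miR-30c-2-3p: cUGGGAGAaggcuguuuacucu
miR-30c-1-3p: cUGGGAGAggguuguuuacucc

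With positions counted from 1 at the 5′ end, miR-30a-5p and miR-30e-5p differ only by C13U (the base of miR-30a first), and miR-30a-3p and miR-30e-3p only by G18A. Both differences lie outside the seed. The 2 miR-30c 3p strands differ by A9G, C12U and U22C (the base of miR-30c-2-3p first). In the table used, the shared 5p seed GUAAACA was found in 3 of 2370 mature human miRNAs (0.127%), all of them printed here. UUUCAGU was in 2 (0.0844%), miR-30a-3p and miR-30e-3p. That table did not hold the strands of miR-30b and miR-30d, so these counts leave them out and do not cover the whole family. The seed UGGGAGA of the miR-30c 3p strands was in 3, of which the other was miR-6788-5p.

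The hairpins lie in 3 pairs of neighbours (GENCODE 29, GRCh38). MIR30E (chr1:40754355-40754446, plus strand) and MIR30C1 (chr1:40757284-40757372, plus strand) stand 2837 bases apart in an intron of NFYC, a gene for a subunit of the transcription factor NF-Y. MIR30C2 (chr6:71376960-71377031, minus strand) and MIR30A (chr6:71403551-71403621, minus strand) stand 26519 bases apart in introns of the lincRNA genes LINC00472 and AL136164.2. MIR30B (chr8:134800520-134800607, minus strand) and MIR30D (chr8:134804876-134804945, minus strand) stand 4268 bases apart and overlap no other annotated gene.

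Depth was 6180032 to 9768152 miRNA reads in Ctrl cells and 5577287 to 8671618 in MIR21-KO, and the 10 members had from 11 to 573885 reads in a library. Values are counts per 1000000 scaled by TMM, a factor that sets most miRNAs of the libraries to a common level. miR-21, the deleted miRNA, took 65.5% to 69.6% of the reads in Ctrl cells and 0.0156% to 0.0254% in MIR21-KO. The log2 difference was -13.02 for miR-21-5p (SE 0.39, adjusted p = 1.05e-06, limma). Of 7 miRNAs listed as epithelial, 4 had a mean value of 10 or more, led by miR-200b-3p, whereas miR-205-5p, the neuronal miR-124-3p and the blood cell miRNAs miR-142-5p and miR-223-3p were under 1 in every library. The 7 summed to 1383 to 2176 in Ctrl cells and to 887 to 1276 in MIR21-KO cells. Of the 3 mesenchymal miRNAs listed (summed 248 to 657 and 428 to 1231), miR-143-3p was present at a mean of 601, and the 4 blood cell miRNAs summed to 1.98 to 43.0 and 2.74 to 9.23. The liver miRNA miR-122-5p had 7.90 to 141 and 8.58 to 51.9, and the 2 muscle miRNAs 5.79 to 26.2 and 7.64 to 71.1. The libraries also stood apart in a way that crosses the groups. The first principal component over 594 miRNAs, with the miR-30 family and miR-21 left out, held 71.5% of the variance and placed Ctrl replicates 1 and 2 with MIR21-KO replicate 3 (set A), away from Ctrl replicate 3 with MIR21-KO replicates 1 and 2 (set B). Depth moved with these sets, at 5577287 to 6871585 reads in set A and 7244400 to 9768152 in set B, and its part in the results was not tested. The study's methods state that small RNA libraries were made with a kit or by a service company. The sample titles do not say which was used for each library, and the part of preparation in the results was not tested.

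miR-30a-5p, the most abundant strand of the family, ranked 5 of 2588 miRNAs by mean value and made up 68.4% ± 3.51 (SD, n = 3 libraries) of the miR-30-5p reads in Ctrl cells and 67.9% ± 7.49 (SD, n = 3) in MIR21-KO. miR-30d-5p followed with 23.9% ± 7.79 and 24.4% ± 9.34 (SD, n = 3 each). The other 3 strands were minor, with Ctrl and MIR21-KO means of 3.74% ± 2.0 and 4.21% ± 0.52 for miR-30c-5p, 2.97% ± 2.28 and 2.40% ± 0.87 for miR-30e-5p, and 1.01% ± 1.04 and 1.10% ± 0.48 for miR-30b-5p (SD, n = 3 each). The Ctrl means of the latter 2 rested on replicate 3, without which they were 1.65% for miR-30e-5p and 0.41% for miR-30b-5p. The makeup of the family thus differed between the conditions by less than its spread between libraries, for each of the 5 strands. It moved within the conditions, where the share of miR-30d-5p ran from 15.2% to 30.3% in Ctrl libraries and from 18.9% to 35.2% in MIR21-KO libraries.

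**Figure D1:**
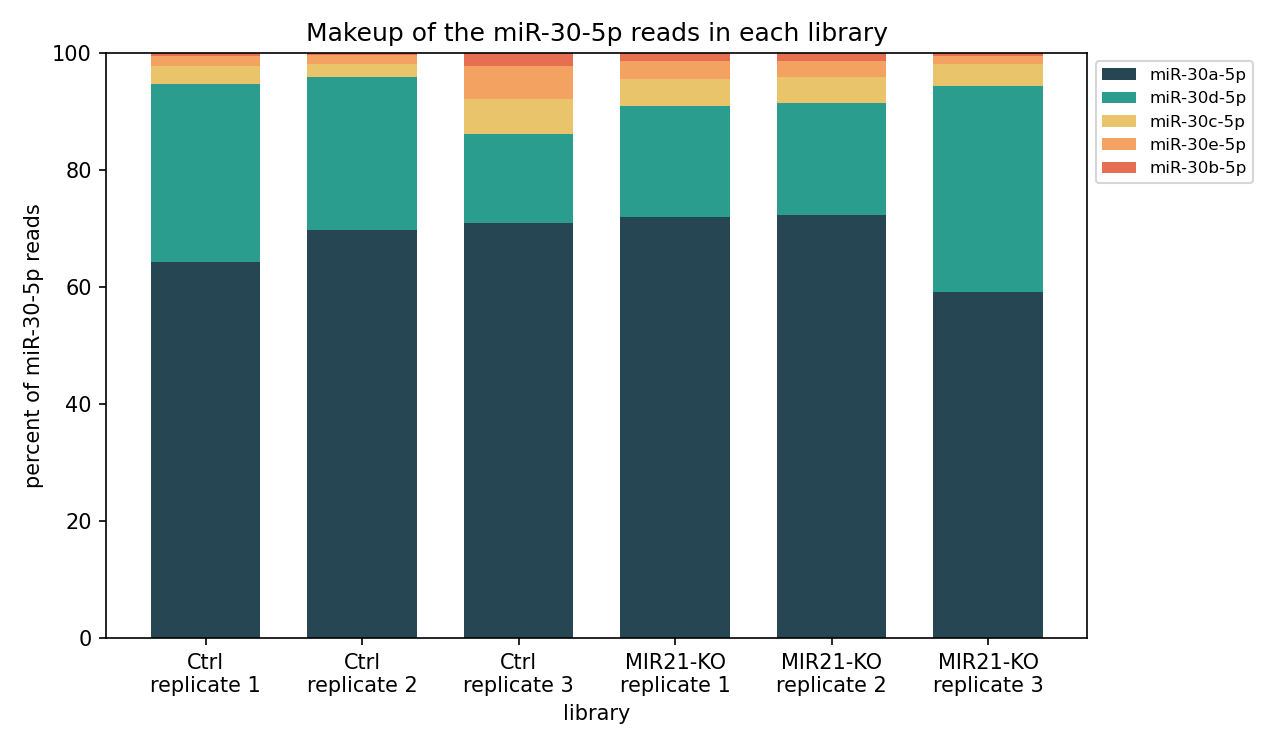
Each bar is 1 library, split by the percent of its miR-30-5p reads that came from each of the 5 strands (vertical axis, percent). miR-30a-5p takes from 59.2% to 72.4% in every bar, and the miR-30d-5p share is smallest in Ctrl replicate 3 and greatest in MIR21-KO replicate 3.

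The 5 values of the 5p strands summed to 34220, 35201 and 56527 in Ctrl cells and to 57365, 54088 and 39369 in MIR21-KO. The means were 41983 ± 12605 and 50274 ± 9585 (SD, n = 3 each), so the MIR21-KO mean was 120% of Ctrl, and the groups overlapped. As a share of the miRNA reads other than miR-21, which no scaling factor affects, the 5p strands took 5.41%, 6.70% and 13.5% in Ctrl cells and 9.19%, 10.4% and 5.43% in MIR21-KO. The means, 8.54% ± 4.35 and 8.32% ± 2.57 (SD, n = 3 each), lay closer together than the libraries of either group. The 5 values of the 3p strands summed to 6340, 5845 and 2152 in Ctrl libraries, against 2694, 2514 and 6728 in MIR21-KO libraries. These groups overlapped too, and the means of 4779 ± 2289 and 3979 ± 2383 (SD, n = 3 each) put MIR21-KO at 83.3% of Ctrl. The 95% Wilson interval of the lowest 5p share was 5.38% to 5.44%, so counting error was small beside the spread of that share between libraries. Such intervals cover counting error only, and the sources used here do not say whether reads carried a molecular identifier. Of all miRNA reads, the 5p strands took 2.69% ± 1.23 in Ctrl cells and 8.32% ± 2.57 in MIR21-KO (SD, n = 3 each), since miR-21 fills most of the Ctrl total.

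By mean value over the 6 libraries, the members ranked miR-30a-5p (5), miR-30d-5p (11), miR-30a-3p (32), miR-30c-5p (43), miR-30e-5p (54), miR-30e-3p (72), miR-30b-5p (90), miR-30c-2-3p (91), miR-30d-3p (221) and miR-30b-3p (371). The mature strands are of nearly equal length (22 to 23 bases for those printed), so values were not adjusted for length. How evenly the strands were recovered as reads was not tested, so these ranks and ratios between strands describe reads. miR-30a-5p was above miR-30d-5p in every library (1.68 to 4.66 times), and miR-30c-5p above miR-30e-5p in every library (1.06 to 2.58 times). The neighbours miR-30a-3p and miR-30c-5p, miR-30e-5p and miR-30e-3p, and miR-30b-5p and miR-30c-2-3p overlapped in their ranges, and their order changed between libraries.

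The comparison of MIR21-KO with Ctrl asked whether the level of the family changed with the loss of miR-21. No member passed the test at an adjusted p under 0.05 (limma on log2(value + 1), Benjamini-Hochberg adjustment over 607 miRNAs, adjusted p from 0.576 to 0.938), beside 0.824% of all miRNAs tested (0 higher, 0.0%, and 5 lower). Without adjustment, 0 of 10 members had a p under 0.05, beside 68 of 607 miRNAs (11.2%). edgeR on the recovered reads also called 0 of 10 (1.15% of all). DESeq2 called 0 members (3.79% of all), but gave no adjusted p for 7 of the 607 miRNAs, miR-30b-5p among them. The median log2 difference was 0.21 over the members and 0.24 over all miRNAs tested. Among the alternatives run, a call was made only when each library was scaled to its full miRNA total, which contains miR-21, and 4 members were then higher (miR-30a-5p, miR-30d-5p, miR-30b-3p and miR-30c-2-3p). That scaling called 32.3% of all miRNAs higher and moved the median of all to 1.37.

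Of the 5p strands, the main guide strands of the family, miR-30a-5p had values of 22029, 24533 and 40131 in Ctrl cells and of 41337, 39134 and 23317 in MIR21-KO. A low and a high level, about the same in each condition, were thus both present in each group, and the groups overlapped. The log2 difference was 0.27 (SE 0.37, 95% interval -0.61 to 1.14, adjusted p = 0.790), on the log2(value + 1) scale as for all members.

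miR-30d-5p, known with miR-30b-5p to repress the glycosyltransferase GALNT7 in melanoma, had 10360, 9247 and 8611 in Ctrl cells and 10831, 10354 and 13854 in MIR21-KO. It was the steadiest of the 5p strands, at 1.61 times from its lowest to its highest library, and the groups overlapped by a narrow margin, as MIR21-KO replicate 2 lay just under Ctrl replicate 1. Its log2 difference was 0.30 (SE 0.31, 95% interval -0.42 to 1.03, adjusted p = 0.719).

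miR-30c-5p, a repressor of CCN2, had 1091, 731 and 3368 in Ctrl cells and 2630, 2398 and 1427 in MIR21-KO. Ctrl replicate 3 was above, and Ctrl replicates 1 and 2 below, every MIR21-KO library. The log2 difference was 0.58 (SE 0.62, 95% interval -0.87 to 2.03, adjusted p = 0.734). The table gave this strand 2 rows, which differed by -1.79% to 3.13% in a library and were summed, and how reads that match both loci were assigned is not given in the sources used here.

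miR-30e-5p, which differs from miR-30a-5p by the base named above, had 583, 564 and 3164 in Ctrl cells and 1737, 1495 and 552 in MIR21-KO. The highest library was a Ctrl and the lowest a MIR21-KO, and the log2 difference was 0.15 (SE 0.79, 95% interval -1.69 to 2.0, adjusted p = 0.938). miR-30b-5p had 157, 127 and 1252 in Ctrl cells and 829, 708 and 219 in MIR21-KO. It ranged most of all members, 9.86 times, with Ctrl replicate 3 at 8.83 times the mean of the other Ctrl libraries. Its log2 difference was 0.78 (SE 0.96, 95% interval -1.45 to 3.02, adjusted p = 0.779).

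The fitted difference was above 0 for 5 of 5 5p strands on the deposited scale (median 0.30, beside 0.24 over all miRNAs tested). It was below 0 for miR-30e-5p under 3 of 4 other scalings and for miR-30a-5p under 1 of them, the centring on the median miRNA. With a further term for library set it was 0.0038 for miR-30a-5p, -0.040 for miR-30b-5p, 0.13 for miR-30c-5p, 0.40 for miR-30d-5p and -0.51 for miR-30e-5p. With condition alone, the upper limits of the intervals allow for a level at most 2.20 times as high for miR-30a-5p and 2.04 times for miR-30d-5p. For miR-30b-5p the limit is 8.11 times, so at this spread a sizeable change in the minor strands could not be detected.

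Of the 3p strands, miR-30a-3p had values of 4251, 4019 and 1373 in Ctrl cells and of 1800, 1732 and 4666 in MIR21-KO. Here the libraries that were high for miR-30a-5p were low, in each condition. The log2 difference was -0.23 (SE 0.61, 95% interval -1.66 to 1.20, adjusted p = 0.882). miR-30e-3p, known to repress the NF-kB inhibitor NFKBIA in glioma, had 1506, 1146 and 253 in Ctrl cells and 254, 264 and 1544 in MIR21-KO. The high libraries were those of miR-30a-3p again. Its log2 difference was -0.69 (SE 0.93, 95% interval -2.86 to 1.47, adjusted p = 0.789).

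miR-30c-2-3p had 531, 626 and 468 in Ctrl cells and 593, 475 and 475 in MIR21-KO. It was the steadiest member of all (1.34 times from lowest to highest) with a log2 difference of -0.07 (SE 0.39, 95% interval -0.99 to 0.84, adjusted p = 0.938). miR-30b-3p was scarce, with 2.94, 3.24 and 7.76 in Ctrl cells and 11.4, 11.8 and 5.07 in MIR21-KO, which rest on 11 to 163 reads. Ctrl replicate 3 lay above MIR21-KO replicate 3, and the log2 difference was 0.90 (SE 0.51, 95% interval -0.27 to 2.08, adjusted p = 0.576). The remaining arm of the family, miR-30c-1-3p, was as scarce, with 5.07, 4.60 and 8.61 in Ctrl cells and 10.6, 11.6 and 4.42 in MIR21-KO.

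miR-30d-3p had 47.5, 50.8 and 49.4 in Ctrl cells and 35.9, 31.7 and 39.0 in MIR21-KO. It was the only member whose groups did not overlap, and every MIR21-KO library was below every Ctrl library, as for 6.59% of all miRNAs tested (16.1% did not overlap in either direction). The difference did not pass the test (log2 difference -0.46, SE 0.40, 95% interval -1.39 to 0.46, adjusted p = 0.717). Over the 3p strands the median log2 difference was -0.23, with 4 of 5 below 0 on the deposited scale and all 5 above 0 when each library was scaled to its full miRNA total.

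**Figure D2:**
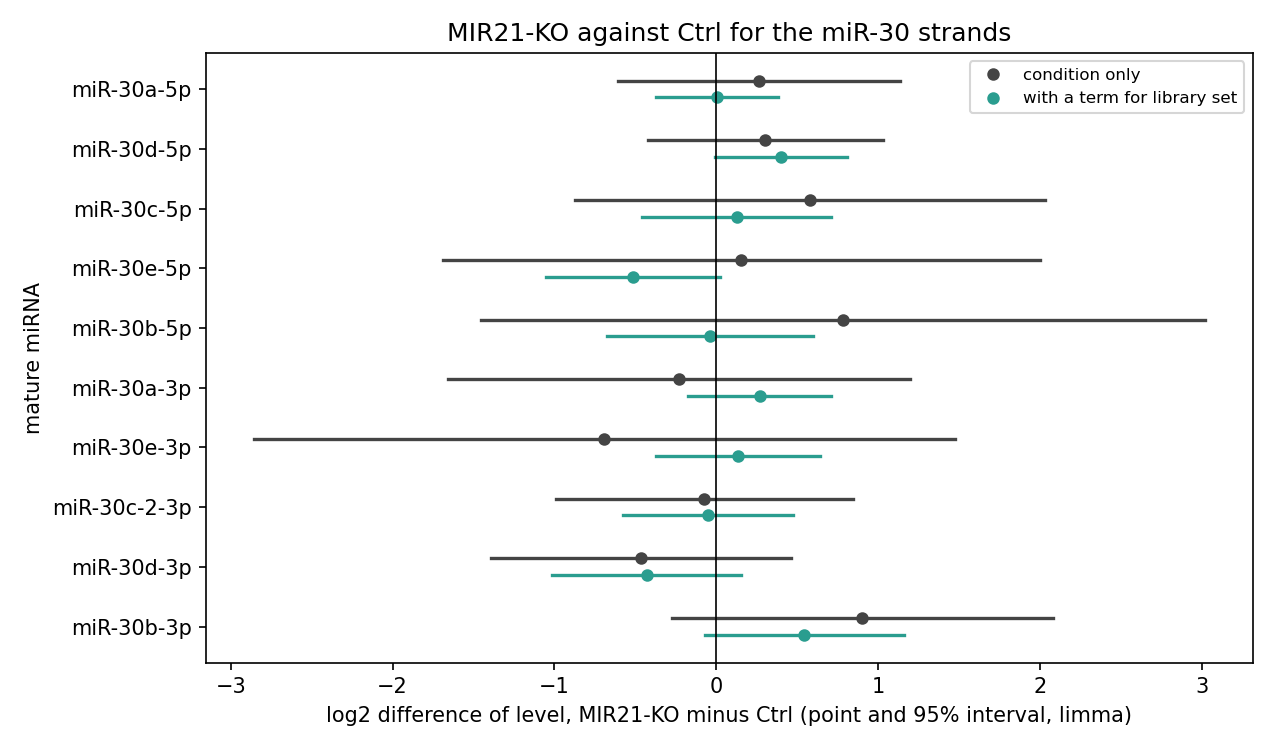
Points are the log2 difference of level (MIR21-KO minus Ctrl) from limma and bars its 95% interval, in grey with condition as the only term and in green with a further term for the 2 library sets. Every grey and every green interval of the 10 members contains 0, and the green ones are narrower.

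The ratio of 5p to 3p was then compared for each hairpin, as it does not depend on the factor that scales a library, apart from the pseudocount of 1. On the log2 scale it ran from below 0 to above 8 across the family. The miR-30d hairpin gave nearly pure 5p, with at least 99.4% of its reads from it in every library, and miR-30b at least 97.5%. For miR-30c-1 the share was 99.4% to 99.7%, but it counts the miR-30c-5p reads of both loci, so the hairpin's own share is not known. miR-30a gave 83.3% to 96.7% and miR-30c-2 53.9% to 87.8%, where miR-30c-5p reads are counted in full for each miR-30c hairpin, so these ratios share a numerator and understate the 3p part.

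By reads, the miR-30e hairpin changed its main strand between libraries, and the change followed library sets A and B. Its 5p strand took 27.9%, 33.0% and 92.6% of the hairpin's reads in Ctrl cells and 87.2%, 85.0% and 26.3% in MIR21-KO. The 95% Wilson intervals, such as 26.9% to 28.9% for Ctrl replicate 1 and 92.3% to 92.9% for Ctrl replicate 3, were far narrower than this spread. The 3p strand thus had more reads than the 5p strand in Ctrl replicates 1 and 2 and in MIR21-KO replicate 3, and fewer in the others. Whether the recovery of either strand as reads differed between the library sets was not tested. The sum of both strands moved far less than their ratio: it was 2089, 1710 and 3418 in Ctrl cells and 1991, 1759 and 2096 in MIR21-KO, at most 2.0 times apart, while the ratio (log2 -1.37, -1.02 and 3.64 in Ctrl cells and 2.77, 2.50 and -1.48 in MIR21-KO) ranged 34.8 times. This range ranked 7 of 181 hairpins with both strands measured, whose median range was 4.74 times. A change of main strand was seen in 37 of these 181 hairpins (20.4%), and in 1 of 6 of this family.

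For miR-30a the log2 ratio was 2.37, 2.61 and 4.87 in Ctrl cells and 4.52, 4.50 and 2.32 in MIR21-KO. The 5p strand had more reads than the 3p strand in all 6 libraries, and the same libraries were high as for miR-30e. The ratio ranged 5.84 times, and the summed strands 1.64 times. For miR-30b the log2 ratio was 5.32, 4.92 and 7.16 in Ctrl cells and 6.07, 5.80 and 5.18 in MIR21-KO, and for miR-30c-2 1.04, 0.22 and 2.85 in Ctrl cells and 2.15, 2.33 and 1.59 in MIR21-KO. Here too Ctrl replicate 3 was the highest library. In these hairpins the sum was not steady, at 9.67 times from lowest to highest for miR-30b and 2.83 times for miR-30c-2.

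No hairpin of the family passed the test of its ratio between the conditions (limma over 181 hairpins, 0 of 6 at an adjusted p under 0.05, adjusted p from 0.90 to 0.959), beside 0 of 181 called in all (0.0%). Without adjustment, 0 of 6 had a p under 0.05, beside 4 of 181 (2.21%), and edgeR and DESeq2 were not run on ratios. The median log2 difference was 0.58 over the 6 hairpins and 0.15 over the 181. For miR-30e the difference of 0.85 had an interval from -3.22 to 4.91, so neither direction could be told at this spread.

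The ratios of miR-30c-1 and miR-30d overlapped between the library sets. For miR-30c-1 the log2 ratio was 7.49, 7.03 and 8.45 in Ctrl cells and 7.83, 7.57 and 8.04 in MIR21-KO, and the conditions overlapped too. The miR-30d hairpin had log2 ratios of 7.74, 7.48 and 7.42 in Ctrl cells and 8.20, 8.31 and 8.44 in MIR21-KO. Its ratio varied least of the 6 hairpins, and every MIR21-KO library lay above every Ctrl library, as for 3.31% of the 181 hairpins. The means were 7.54 ± 0.17 and 8.31 ± 0.12 (SD, n = 3 each). The difference of 0.77 (SE 0.41, 95% interval -0.21 to 1.74) exceeded the spread within either group but did not pass the test, with an adjusted p of 0.90. limma shrinks the spread of a hairpin towards that of all 181, among which the range of miR-30d ranked 165.

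The 2 library sets, read from other miRNAs, parted most of the family. With no overlap between sets, 7 of 10 members were higher or lower in set B, beside 57.2% of all miRNAs tested, and 4 of 6 hairpins had a higher 5p to 3p ratio in set B, beside 60.8% of the 181 hairpins apart in either direction. Both shares are near the background. The members higher in set B were miR-30a-5p, miR-30b-5p, miR-30c-5p and miR-30e-5p and the scarce miR-30b-3p, and those lower were miR-30a-3p and miR-30e-3p. In Ctrl, replicate 3 (set B) was at 5.52 times the mean of replicates 1 and 2 for miR-30e-5p, and that mean was 5.24 times the value of replicate 3 for miR-30e-3p. In MIR21-KO, the mean of replicates 1 and 2 (set B) was 2.93 times the value of replicate 3 for miR-30e-5p, and replicate 3 was at 5.97 times that mean for miR-30e-3p. The opposite movement of these strands was thus present within each condition. miR-30d-5p, miR-30d-3p and miR-30c-2-3p overlapped between the sets.

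With a term for library set in the fit, 0 of 10 members were called (limma, adjusted p from 0.168 to 0.990), beside 18.1% of all miRNAs tested. These p-values are not independent of the sets, which were read from the same libraries. The log2 difference was then 0.00 (SE 0.18) for miR-30a-5p, 0.40 (SE 0.19) for miR-30d-5p, -0.51 (SE 0.25) for miR-30e-5p and -0.43 (SE 0.27) for miR-30d-3p. Within set A (MIR21-KO replicate 3 against Ctrl replicates 1 and 2) and within set B (MIR21-KO replicates 1 and 2 against Ctrl replicate 3), miR-30a-5p differed by 0.00 and 0.00 on the log2 scale. miR-30d-5p differed by 0.50 and 0.30, miR-30d-3p by -0.33 and -0.54, and miR-30b-3p by 0.57 and 0.52, so these kept their direction. miR-30b-5p (0.63 and -0.71), miR-30c-5p (0.68 and -0.42) and miR-30c-2-3p (-0.28 and 0.18) changed sign between the sets. miR-30e-5p (-0.054 and -0.97), miR-30a-3p (0.17 and 0.36) and miR-30e-3p (0.23 and 0.032) had the same sign in both sets, opposite to their difference in the fit with condition alone. For the 5p to 3p ratio, the term left 0 of 6 hairpins called, beside 0.552% of the 181, and the miR-30d difference was 0.83 (SE 0.32, 95% interval 0.11 to 1.55) with an adjusted p of 0.287.

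Strands of nearly equal sequence or of neighbouring hairpins did not keep a fixed ratio. miR-30a-5p was 37.8, 43.5 and 12.7 times miR-30e-5p in Ctrl cells and 23.8, 26.2 and 42.2 times in MIR21-KO. miR-30a-3p was 2.82 to 7.09 times miR-30e-3p, and here the ratio was higher in the libraries in which that of the 5p strands was lower. How reads that fit both miR-30a and miR-30e were counted is not given in the sources used here, so these values are uncertain to that extent. miR-30d-5p was 66.1, 72.8 and 6.88 times miR-30b-5p in Ctrl cells and 13.1, 14.6 and 63.3 times in MIR21-KO, a range of 10.6 times for strands whose hairpins stand 4268 bases apart on the same strand.

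Outside the family, the miRNAs with a pattern most like miR-30a-5p were miR-29a-3p, miR-769-3p and miR-186-5p (Pearson r of 0.999, 0.999 and 0.997 over 6 libraries, log2(value + 1)). Those most like the mean of the 5p strands were miR-410-3p, miR-136-3p and miR-374a-5p (r of 0.994, 0.994 and 0.991). Such values were common, with r over 0.9 for 74 and 77 of 323 miRNAs, and the 6 points behind each r fall into the 2 library sets. Of 9 miRNAs of other broadly expressed families (miR-26, miR-29, miR-103, miR-107 and miR-181), 0 of 9 were called by limma, with log2 differences of 0.23 to 1.51 and a median of 0.93.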

How the data were processed

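Small RNA of 3 Ctrl and 3 MIR21-KO libraries of A549 cells was compared. What the authors deposited is a normalised signal for each of 2813 table rows, equal to counts per 1000000 divided by the TMM factor of the library. Divided by the value of 1 read, 100.0% of the nonzero values came out whole (tolerance 1e-06), and the library factors (0.545 to 0.725 in Ctrl and 1.38 to 1.91 in MIR21-KO) matched TMM factors recomputed from the reads to within 2.11e-14. The submitters' processing notes name cutadapt 1.14, Bowtie2 2.3.2, SAMtools 1.5, featureCounts 1.5.3, edgeR 3.18.1 and hg38, without their settings. The authors' log2 fold changes, p-values and FDRs in the table were not used.

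Rows of a name were summed. limma 3.58.1 (lmFit, eBayes, with trend for levels; R 4.3.3) was fitted on log2(value + 1) for 607 miRNAs and on the log2 5p to 3p ratio of 181 hairpins, two-sided, with Benjamini-Hochberg adjustment over each table. Alternatives were pseudocounts of 0.1 and 10, other filters, 4 other scalings, edgeR 4.0.16 (quasi-likelihood) and DESeq2 1.42.0 on the recovered counts, a replicate block, a term for library set, miR-30c-5p left unpaired, and each library left out. The 3p sum was put through the scalings and omissions as an addition made after the data were seen. Sums, shares and sets got no test. The fits were also run on simulated counts that held no library sets, so that run does not show how they behave on the present libraries. No pair of replicates was a duplicate (chi-square per degree of freedom 130 to 2560).

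The miRNAs named were the members, miR-30c-1-3p, miR-21, and the 3 others most alike miR-30a-5p and the 5p mean (mean value of at least 10). The comparison and marker lists appear as counts with their leading or absent members. Members and lists were chosen with earlier results of these data known. Tables were handled with pandas 2.3.3 and numpy 2.4.6 in Python 3.11.15, intervals came from scipy 1.17.1, and plots from matplotlib 3.10.9.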

Additional observations from a re-analysis of the deposited data

How the results depend on the processing

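No tested member and no tested miR-30 hairpin was called under any alternative run other than the scaling to the full miRNA total. With a mean value of at least 10, miR-30b-3p and the miR-30b and miR-30c-1 hairpins were not tested, and with miR-30c-5p unpaired the miR-30c hairpins were not. That scaling called 4 members higher, with log2 differences of 1.65 (miR-30a-5p), 1.69 (miR-30d-5p), 2.09 (miR-30b-3p) and 1.31 (miR-30c-2-3p, reversed), and also turned miR-30a-3p (1.16), miR-30d-3p (0.89) and miR-30e-3p (0.69). It set the 5p sum to 309% and the 3p sum to 216% of Ctrl and called 196 of all miRNAs higher. The median of all miRNAs, 0.24 as deposited, was 1.37 there, 0.019 with totals without miR-21, 0.099 under median-of-ratios factors and -0.024 after centring on the median. Median centring turned miR-30a-5p (-0.033). miR-30e-5p was below 0 with totals without miR-21 (-0.10), median-of-ratios factors (-0.0056), median centring (-0.14), the set term (-0.51), edgeR (-0.23) and DESeq2 (-0.44). DESeq2 also turned miR-30b-5p (-0.052, with no adjusted p) and called 4 miRNAs higher and 19 lower. The set term turned miR-30b-5p (-0.040), miR-30a-3p (0.27), miR-30e-3p (0.13) and the ratios of miR-30a (-0.26) and miR-30e (-0.65), and called 71 miRNAs higher, 39 lower and 1 ratio lower. A pseudocount of 10 turned the miR-30b ratio (0.35) and left 3 miRNAs and 1 ratio called lower. With all miRNA reads as the total, the Ctrl 5p share was 2.69%. The cause of these turns was not tested.

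When single libraries were left out, the differences ran from -0.27 to 0.98 for miR-30e-5p, -0.76 to 0.055 for miR-30a-3p, -0.18 to 0.035 for miR-30c-2-3p, 0.19 to 1.83 for miR-30b-5p, 0.12 to 1.22 for miR-30c-5p, 0.096 to 0.53 for miR-30a-5p, 0.18 to 0.39 for miR-30d-5p and -1.55 to -0.20 for miR-30e-3p. Those of the ratios ran from -0.56 to 0.56 for miR-30b, -0.16 to 0.55 for miR-30c-1, -0.046 to 2.46 for miR-30e, 0.041 to 1.29 for miR-30a and 0.082 to 1.39 for miR-30c-2. The 5p sum ran from 110% to 145% of Ctrl, the latter without Ctrl replicate 3, and the 3p sum from 54.5% (without MIR21-KO replicate 3) to 99.5%. Of all miRNAs, 2 to 5 were called lower (2 without Ctrl replicate 1 or MIR21-KO replicate 1 or 2), and 0 to 1 ratios lower (1 without Ctrl replicate 3). Same-numbered libraries did not deviate together (correlations -0.79, -0.60 and -0.88). Each such pair is split between library sets A and B, so this check cannot tell whether the numbers mark pairs. The replicate block called 0 members and 2 miRNAs lower in place of 5. Depth limits miR-30b-3p (11 reads in a library) most.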
